A study of Gossypium hirsutum with 18 samples.

Results

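Ribulose-1,5-bisphosphate carboxylase/oxygenase (Rubisco) fixes CO2 in the Calvin-Benson cycle. Its large subunit carries the active site and is encoded in the plastid, whereas the small subunit is encoded by a family of nuclear genes, RBCS, made in the cytosol as a precursor and imported into the chloroplast. RBCS transcripts are known as some of the most abundant in green leaves, and their level follows light, development and stress. In rice and tobacco a distinct type of small subunit gene is expressed outside the main photosynthetic tissue. Whether any cotton gene described here belongs to that type was not examined.

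The Rubisco small subunit genes of upland cotton (Gossypium hirsutum) were chosen by their description in the deposited gene table, the small chain family of ribulose bisphosphate carboxylase, and selected on their FPKM (fragments scaled by gene length and by library total), at least 1 in at least 3 of the 18 libraries. Of 70478 genes, 8 had the description and all 8 met the FPKM condition. All 8 reached it in every leaf library, and 4 of them, Gh_A03G0182, Gh_A07G2172, Gh_D03G1402 and Gh_D07G1759, in every root library too. All 8 carried the same deposited ortholog number, K01602, and 16 gene ontology terms were shared by all 8. The Gh_A03G0182 and Gh_D03G1402 genes also carried the term cytosolic ribosome, and the other 6 the term chloroplast membrane. Nearest to the FPKM condition were Gh_D11G1672, which reached it in 9 libraries, and Gh_A11G1510, which reached it in 10. No gene with the description lay outside it.

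The 18 libraries were made from poly(A) RNA of roots and leaves of cotton seedlings, 3 libraries in each of 6 groups. Seedlings were grown in soil and moved to alkaline solution, for 12 h: per the labels, NaHCO3 at 125 mM, or NaOH at its pH. The CK groups of root and leaf had no treatment, and the AS and SAS groups of each tissue were the treated ones. The labels do not say which of the codes AS and SAS stands for which solution, so the codes are kept. They give no cultivar, plant age or pooling, nor do they state that libraries sharing a group are from separate plants, so p-values measure only the spread between these libraries, which may be technical. Total counts were 46345805 to 66843791 per library. The tissue labels were checked with marker lists: 119 genes of the light-harvesting antenna and photosystems summed to 9943 ± 1352 CPM (counts scaled to a common library size of 1000000, here with 1 TMM scaling over all 18 libraries) in CK leaves and 71.2 ± 2.88 in CK roots (SD, n = 3), and 63 root hair, Casparian strip and transporter genes to 25.3 ± 3.34 in CK leaves and 1734 ± 381 in CK roots. CPM values set within 1 tissue, below, use the scaling of that tissue's 9 libraries and are not on the same scale. Of the root list, 37 genes were at 0 counts in CK leaves and 27 in CK roots, and of the leaf list 21 were at 0 in CK roots.

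By chromosome number and span, the 8 genes were set in 4 couples of A and D copies. A and D are the gene sets that upland cotton holds from its ancestral genomes. The sequences of the genes were not compared. Gh_A03G0182 lies at 2721785 to 2722506 of A03 on the plus strand and Gh_D03G1402 at 42749274 to 42749995 of D03 on the minus strand. Gh_A07G2172 lies on an unplaced scaffold of A07 at 147479 to 148220 and Gh_D07G1759 at 41639445 to 41640186 of D07, both on the plus strand. On A11, Gh_A11G1509 (21312893 to 21313612, minus) and Gh_A11G1510 (21348848 to 21349568, plus) are neighbours on opposite strands, 35235 bp apart, and on D11, Gh_D11G1671 (17993801 to 17994520, minus) and Gh_D11G1672 (18017073 to 18017793, plus) are 22552 bp apart in the same arrangement. The genes span 720 to 742 bp each, and the 2 genes of each A and D couple had the same span. The sources used here do not name the genome build of these coordinates. Members of this family can be close in sequence, and how reads shared between copies were assigned is not stated, so the values of single copies, and above all of neighbours and of A and D copies, are uncertain.

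In leaves, 4 of the genes gave most of the small subunit transcript. Gh_A07G2172 had an FPKM of 7844, 9033 and 6812 in the CK leaf libraries and was the gene of highest mean FPKM in the whole table there. Gh_D07G1759 ranked at place 2 with 4882, 5771 and 4321. Gh_D11G1671 ranked at place 4 with 2644, 3233 and 2689. These levels did not overlap between the 3 genes, and the order Gh_A07G2172, Gh_D07G1759, Gh_D11G1671, Gh_A11G1509, Gh_A11G1510, Gh_D11G1672, Gh_A03G0182, Gh_D03G1402 held in all 9 leaf libraries.

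The neighbours on chromosomes A11 and D11 were unequal. Gh_A11G1509 had an FPKM of 1123, 1369 and 1199 in CK leaves and its neighbour Gh_A11G1510 one of 391, 501 and 411. Gh_D11G1672 had 215, 317 and 223, far below its neighbour Gh_D11G1671. Gh_A03G0182 stood at 5.63, 5.86 and 6.37 and Gh_D03G1402 at 2.39, 1.77 and 2.52, so both were expressed at a low level in leaves. As shares of the summed FPKM of the 8 genes in CK leaves, Gh_A07G2172 held 44.7% ± 1.18, Gh_D07G1759 28.2% ± 0.547, Gh_D11G1671 16.2% ± 0.878, Gh_A11G1509 7.00% ± 0.578, Gh_A11G1510 2.46% ± 0.169 and Gh_D11G1672 1.42% ± 0.156 (SD, n = 3).

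**Figure D1:**
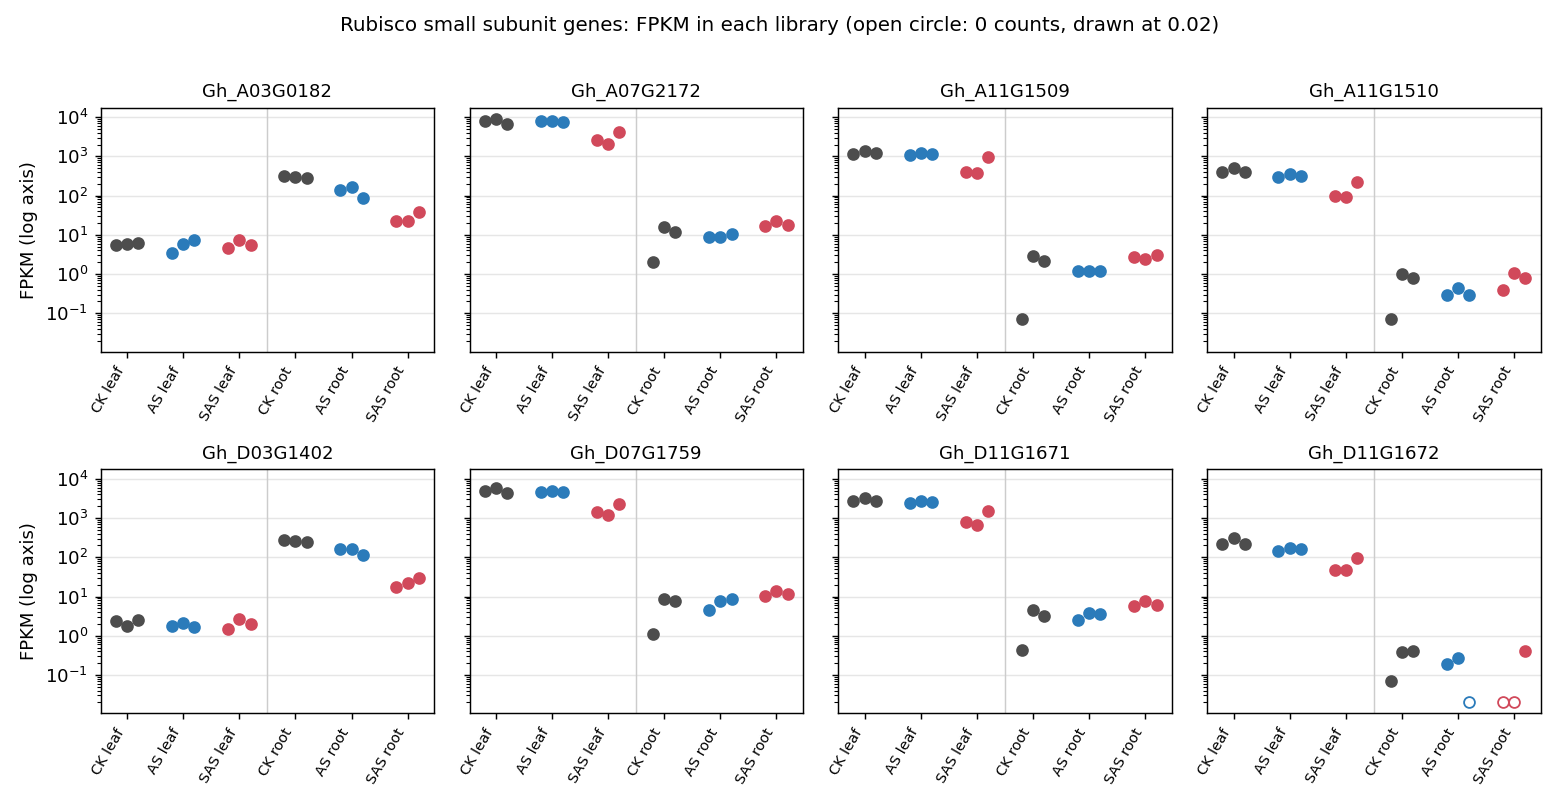
FPKM of each Rubisco small subunit gene (panels, logarithmic axis) in the 18 libraries, 3 points per group in the order of replicates 1 to 3, with open circles for libraries with 0 counts. In CK leaves Gh_A07G2172 lies at 6812 to 9033 and in CK roots at 2.0 to 15.7, whereas Gh_A03G0182 lies at 5.63 to 6.37 in CK leaves and 289 to 320 in CK roots.

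Roots held another order. Gh_A03G0182 had an FPKM of 320, 306 and 289 in CK roots and Gh_D03G1402 one of 276, 259 and 251. Their groups did not overlap each other, and each was far above its own CK leaf values. Together they made up 51.9% ± 1.28 and 44.6% ± 1.39 of the summed FPKM of the family in CK roots. The other 6 genes were at low levels there, from a mean FPKM of 9.75 for Gh_A07G2172 to 0.286 for Gh_D11G1672.

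In the comparison of CK roots with CK leaves, fitted over all 18 libraries with edgeR's quasi-likelihood test, all 8 genes were called at an adjusted p under 0.05, where 66.2% of all 48954 genes tested were called (31.4% higher and 34.7% lower in roots). Gh_A03G0182 was higher in roots by 5.91 ± 0.360 on the log2 scale (SE, adjusted p = 2.6e-09) and Gh_D03G1402 by 7.10 ± 0.304 (adjusted p = 1.8e-10). The other 6 were lower in roots, with log2 differences from -9.75 for Gh_D11G1671 to -9.11 for Gh_A11G1510. Of these, Gh_A11G1510 and Gh_D11G1672 reached an FPKM of 1 in only 1 and 0 root libraries. They entered this fit through leaves, where they are high, so their calls as lower in roots add no support. The median over all genes was -0.05. The 2 genes of root-high and the 6 of leaf-high pattern, as they are called from here on, were told apart by these values after they were seen. With library totals as the only scaling the median moved to -0.28, and with limma on log2(FPKM + 1) 37.2% of the called genes were higher in roots, against 47.5% with TMM.

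In leaves, SAS went with a fall of the whole leaf-high set. The 8 genes took 1.04% ± 0.137 of all counts in CK leaves, 0.994% ± 0.0319 in AS leaves and 0.375% ± 0.149 in SAS leaves (SD, n = 3). The SAS libraries held 0.320%, 0.261% and 0.544%, all below the lowest CK library at 0.925% and the lowest AS library at 0.976%. In bulk tissue, fewer cells of a type and less RNA per cell cannot be told apart. SAS leaf library 3 stood above the other 2 for all 6 leaf-high genes.

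Gh_A07G2172 had an FPKM of 2658, 2054 and 4082 in SAS leaves, against 6812 to 9033 in CK leaves, and its CPM fell by 1.47 ± 0.237 on the log2 scale (SE, edgeR adjusted p = 6.6e-04). Gh_D07G1759, its D copy, had 1415, 1170 and 2303 and a log2 change of -1.65 ± 0.235 (edgeR adjusted p = 3.4e-04). No SAS library overlapped a CK library for either gene. In SAS leaves the ranges of neighbouring genes in the order, Gh_A07G2172 with Gh_D07G1759, Gh_D07G1759 with Gh_D11G1671 and Gh_D11G1671 with Gh_A11G1509, overlapped, which they did not in CK leaves.

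Gh_D11G1672, the lowest of the leaf-high genes, had the lowest fitted log2 change. Its FPKM was 215, 317 and 223 in CK leaves, 148, 178 and 166 in AS leaves and 48.7, 46.7 and 93.5 in SAS leaves, and these 3 groups did not overlap. The log2 change of SAS against CK was -2.03 ± 0.257 (edgeR adjusted p = 1.8e-04). Its neighbour Gh_D11G1671 had 808, 665 and 1532 in SAS leaves and changed by -1.55 ± 0.266 (edgeR adjusted p = 9.2e-04).

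On chromosome A11, Gh_A11G1510 had an FPKM of 95.5, 93.7 and 221 in SAS leaves and a log2 change of -1.71 ± 0.289 (edgeR adjusted p = 8.6e-04). Gh_A11G1509 had 393, 383 and 985 in SAS leaves, so its library 3 came close to the lowest CK value of 1123. Its log2 change of -1.11 ± 0.310 was the least negative of the 6 (edgeR adjusted p = 0.0128). In all, 6 of 8 genes were lower in SAS than in CK leaves and 0 higher, where 53.2% of the 44761 genes tested in leaves were called (27.2% higher and 26.0% lower). The median log2 change was -1.51 over the 8 genes and -0.00 over all genes.

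The root-high genes did not pass the test in leaves. Gh_A03G0182 had an FPKM of 4.74, 7.18 and 5.67 in SAS leaves and a log2 difference from CK of -0.04 ± 0.274 (edgeR adjusted p = 0.912). Gh_D03G1402 had 1.52, 2.62 and 2.02 and a difference of -0.13 ± 0.293 (edgeR adjusted p = 0.722). Both overlapped their CK ranges.

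Without SAS leaf library 3 the falls of the leaf-high genes were larger, from -1.68 for Gh_A11G1509 to -2.41 for Gh_D11G1672, and all 6 stayed called. Leaving out any other CK or SAS leaf library left the 6 genes called as well, with adjusted p from edgeR between 5.0e-04 and 0.0444. The leaf marker list was also lower in SAS leaves. It summed to 3970 to 7070 CPM in SAS leaves and 10410 to 13670 in CK leaves, and 86 of its 107 tested genes were lower in SAS leaves and 0 higher, at a median log2 change of -1.30. In AS leaves, where none of the 8 genes was called by edgeR, this list summed to 7869 to 10210 CPM, below all CK leaf libraries. Of its 107 tested genes 17 were lower and 3 higher there, at a median of -0.44, where 9.21% of all genes were lower and 11.5% higher. The root marker list summed to 98.6 ± 35.0 CPM in SAS leaves, against 31.0 ± 4.06 in CK leaves (SD, n = 3), with 31 of its 63 genes at 0 counts. The part of either list in the fall of the leaf-high genes was not tested.

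**Figure D2:**
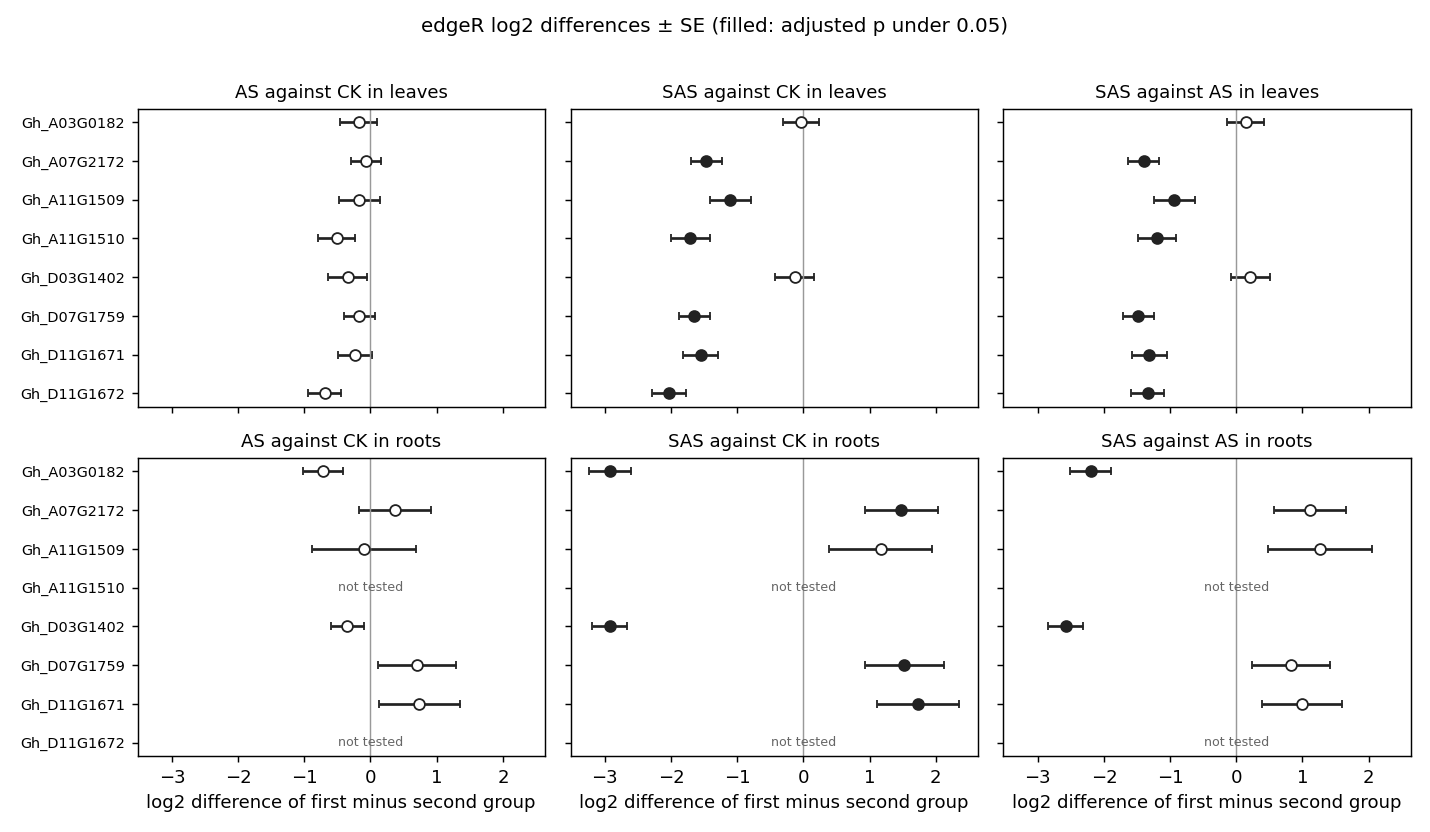
Log2 differences with standard errors from edgeR for the 8 Rubisco small subunit genes (rows) in 6 comparisons (panels), with filled points for an adjusted p under 0.05. In SAS against CK leaves the 6 leaf-high genes lie between -2.03 and -1.11, and in SAS against CK roots Gh_A03G0182 and Gh_D03G1402 lie at -2.92 and -2.93.

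In AS leaves none of the 8 genes passed edgeR's test against CK leaves (0 of 8, with 1 at an unadjusted p under 0.05), where 20.7% of all genes were called (11.5% higher and 9.21% lower). Of the called genes 55.5% were higher, and 70.8% with library totals as the only scaling. Limma called none of the 8. Gh_A07G2172 had an FPKM of 7899, 8177 and 7723 in AS leaves, within the CK range, and a log2 difference of -0.07 ± 0.232 (edgeR adjusted p = 0.864). Gh_D07G1759 had 4715, 4789 and 4529, also within the CK range.

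The lowest fitted difference was again that of Gh_D11G1672. It was -0.69 ± 0.248 with an edgeR adjusted p of 0.0747, and the AS libraries did not overlap the CK libraries. DESeq2 gave -0.68 with an adjusted p of 0.0282, so this gene was called by that tool. For Gh_A11G1510 the FPKM was 291, 349 and 322 in AS leaves, below the lowest CK value of 391, with a log2 difference of -0.51 ± 0.282 (edgeR adjusted p = 0.226). These 2 genes are the plus-strand neighbours on D11 and A11, and edgeR called neither. Gh_D11G1671, on the minus strand of D11, was also without overlap in CPM, at 1346 to 1507 in AS and 1584 to 1934 in CK leaves. Its log2 difference was -0.24 ± 0.260 (edgeR adjusted p = 0.557), and in FPKM its groups overlapped.

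SAS leaves were also below AS leaves. Of the 8 genes, 6 were lower and 0 higher, where 40.0% of all genes were called (20.7% higher and 19.3% lower). Log2 differences ran from -1.48 ± 0.234 for Gh_D07G1759 (edgeR adjusted p = 0.00147) to -0.94 ± 0.309 for Gh_A11G1509 (edgeR adjusted p = 0.0353). The call of Gh_A11G1509 was lost without any 1 of 5 libraries: AS leaf 1, 2 or 3, at adjusted p of 0.0642, 0.0835 and 0.0794, and SAS leaf 1 or 2, at 0.1 and 0.0893. Without SAS leaf 3 its difference was -1.51. Comparisons of SAS with CK and of SAS with AS share the SAS libraries.

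The FPKM ratios within the neighbouring genes also lay apart between leaf groups, except for AS and SAS on D11. How reads shared between neighbours were assigned is not stated, so these ratios are uncertain. The FPKM of Gh_A11G1510 was 0.348, 0.366 and 0.343 times that of Gh_A11G1509 in CK leaves, 0.270, 0.283 and 0.281 times in AS leaves and 0.243, 0.245 and 0.224 times in SAS leaves. On the log2 scale the means were -1.51 ± 0.048, -1.85 ± 0.038 and -2.08 ± 0.072 (SD, n = 3), and the 3 groups did not overlap. An exact two-sided permutation test gave p = 0.1 for each of the 3 contrasts, the smallest p that 3 against 3 libraries allow.

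On D11, Gh_D11G1672 stood at 0.0812, 0.0981 and 0.0829 times Gh_D11G1671 in CK leaves, 0.0630, 0.0664 and 0.0630 times in AS leaves and 0.0603, 0.0702 and 0.0610 times in SAS leaves. Both treated groups lay below CK (exact permutation p = 0.1 each) and overlapped each other (exact permutation p = 1). No contrast of these ratios could pass a threshold of 0.05 with 3 libraries in a group.

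Between A and D copies, the FPKM of Gh_A07G2172 over Gh_D07G1759 had a mean log2 ratio of 0.66 ± 0.019 in CK, 0.76 ± 0.015 in AS and 0.85 ± 0.053 in SAS leaves, with no overlap between groups. Gh_A11G1509 over Gh_D11G1671 was at -1.21 ± 0.041 in CK, -1.15 ± 0.048 in AS and -0.83 ± 0.203 in SAS leaves. Its SAS values lay above both other groups, and the CK and AS values overlapped. The smallest exact permutation p is again 0.1 for these contrasts, and over the 21 contrasts of ratios computed the smallest Benjamini-Hochberg adjusted p was 0.162, reached by 13 of them.

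**Figure D3:**
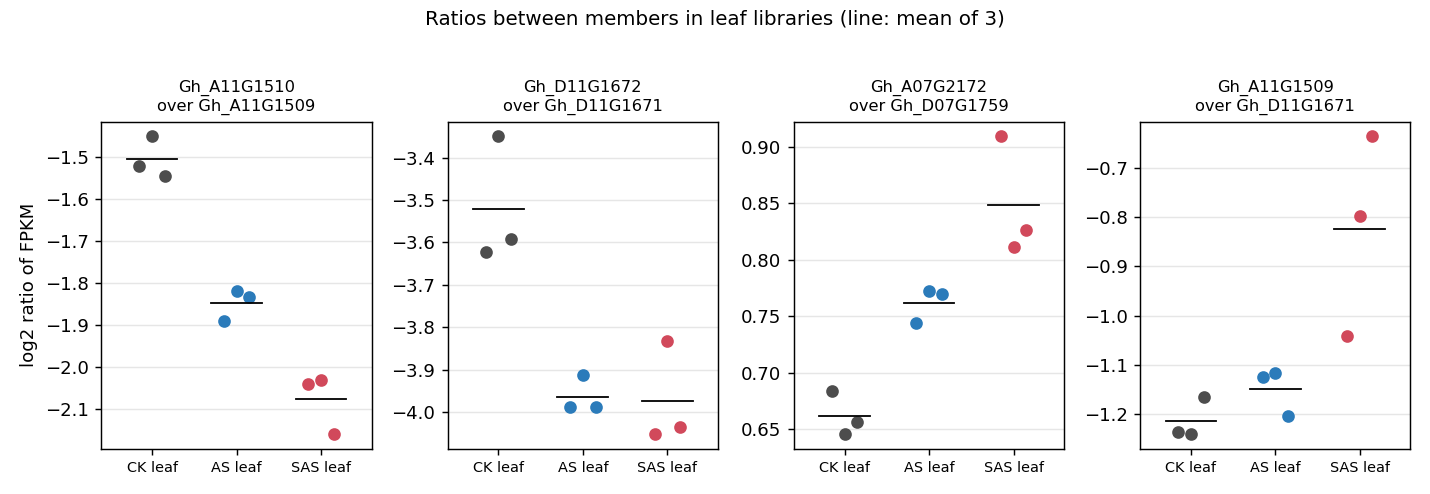
Log2 ratio of the FPKM of 2 Rubisco small subunit genes in each leaf library (points), with the mean of the 3 libraries of a group (lines), for the neighbours on A11 and D11 and for 2 couples of A and D copies. For Gh_A11G1510 over Gh_A11G1509 the group means step from -1.51 in CK to -1.85 in AS and -2.08 in SAS leaves.

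Genes of the pathway around Rubisco were counted from lists matched to the deposited descriptions, and are to be read against the 53.2% of all leaf genes that were called in SAS against CK (27.2% higher and 26.0% lower). In SAS against CK leaves, 25 of 33 tested photorespiration genes were lower and 0 higher (75.8% called), at a median log2 change of -1.29. Gh_A05G0330, a P-protein of glycine decarboxylase, which releases CO2 from glycine in mitochondria, fell from 695 ± 44.3 to 193 ± 53.6 CPM (SD, n = 3; log2 change -1.85 ± 0.202, edgeR adjusted p = 8.8e-05). A scaffold copy, Gh_Sca076640G01, fell from 9.04 ± 1.55 to 2.75 ± 0.921 CPM.

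Of 81 tested genes of the Calvin-Benson cycle, 53 were lower and 8 higher in SAS leaves (75.3% called), at a median of -0.81. All 9 chloroplast glyceraldehyde-3-phosphate dehydrogenase genes, all 4 phosphoribulokinase genes and both sedoheptulose bisphosphatase genes were lower. Gh_A01G0826 and Gh_D01G0854, B subunits of the chloroplast dehydrogenase, fell from 27.7 ± 0.489 to 6.53 ± 3.70 and from 27.2 ± 1.20 to 6.72 ± 3.68 CPM. In the opposite direction, the phosphoglycerate kinase genes Gh_A01G0774 and Gh_D01G0799 rose from 39.8 ± 2.46 to 65.5 ± 11.9 and from 71.6 ± 5.83 to 115 ± 20.2 CPM. Their description does not say whether they are the chloroplast or the cytosolic form.

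The list of large subunit copies, activase and assembly factors had 24 of 53 tested genes lower and 3 higher (50.9% called, close to the share over all genes), at a median of -0.56. None of the 8 tested copies of the large subunit was called (median -0.39), and of 29 tested plastid-encoded transcripts 3 were lower and 0 higher. The list of plastid-encoded transcripts summed to only 95.0 ± 53.4 CPM in CK leaves (SD, n = 3). Its entries were matched by description in libraries of poly(A) RNA. They do not settle whether the plastid transcript of the large subunit changed. Rubisco activase removes inhibitory sugar phosphates from the enzyme, and 4 of its 5 tested genes were lower. Among them Gh_D10G2299 fell from 435 ± 29.4 to 179 ± 71.5 CPM (log2 change -1.28 ± 0.247, edgeR adjusted p = 0.00179), whereas Gh_A04G0721, at a low level, rose from 0.488 ± 0.213 to 1.17 ± 0.146 CPM. RbcX proteins are chaperones of large subunit assembly, and they moved in both directions. Gh_D05G0701 rose from 2.96 ± 0.208 to 17.5 ± 9.64 CPM and Gh_A10G0107 fell from 8.86 ± 1.98 to 2.83 ± 1.04 CPM.

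Of 40 tested genes of the Toc and Tic complexes, which import precursors such as that of the small subunit, 14 were lower and 3 higher (42.5% called, below the share over all genes), at a median of -0.12. Copies of the receptor Toc159 fell, Gh_D09G2309 from 72.7 ± 4.31 to 25.5 ± 7.73 and Gh_A09G2102 from 109 ± 7.59 to 48.0 ± 16.3 CPM. Gh_A03G1532, described as Toc64-V, whose Arabidopsis counterpart sits in the mitochondrial outer membrane, rose from 7.57 ± 0.572 to 18.1 ± 4.45 CPM, and the Tic20-IV gene Gh_D04G1425 from 0.280 ± 0.0799 to 0.850 ± 0.103 CPM. Of 23 tested regulators of light-dependent genes, 4 were lower and 3 higher (30.4% called). Genes for phytochrome interacting factor 3, a basic helix-loop-helix factor of light signalling, were among the lower ones, with Gh_A11G3067 falling from 15.3 ± 2.11 to 4.19 ± 0.729 and Gh_D11G1107 from 3.43 ± 0.594 to 0.992 ± 0.188 CPM. Gh_A11G1248, described as phytochrome interacting factor 3-like 5, rose from 19.8 ± 3.20 to 44.3 ± 5.53 CPM, and the G-box binding factor 3 gene Gh_A08G1122 from 9.67 ± 0.928 to 16.6 ± 3.31 CPM.

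In AS against CK leaves, photorespiration had 8 of 33 genes lower and 0 higher, the Calvin-Benson cycle 6 lower and 7 higher of 81, the Rubisco assembly list 5 lower and 7 higher of 53, chloroplast import 0 lower and 5 higher of 40, and the light regulators 5 lower and 1 higher of 23. The lists had 12.5% to 26.1% of their genes called, around the 20.7% of all genes (11.5% higher and 9.21% lower). Their medians lay between -0.28 and 0.13. By direction the lists differed: the calls of photorespiration (24.2%) were all lower and those of chloroplast import (12.5%) all higher.

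In roots, SAS went with a fall of both root-high genes. Gh_A03G0182 had an FPKM of 320, 306 and 289 in CK roots, of 143, 162 and 88.9 under AS and of 22.2, 21.9 and 38.2 under SAS. Gh_D03G1402 had 276, 259 and 251, then 164, 163 and 112, and 17.7, 22.7 and 30.0. For both genes the 3 groups did not overlap. In SAS against CK, Gh_A03G0182 fell by 2.92 ± 0.319 on the log2 scale (SE, edgeR adjusted p = 5.7e-05) and Gh_D03G1402 by 2.93 ± 0.265 (edgeR adjusted p = 1.8e-05). Without any 1 of the CK or SAS root libraries the changes stayed between -3.26 and -2.74. In SAS against AS they were -2.20 ± 0.311 (edgeR adjusted p = 7.4e-04) and -2.58 ± 0.261 (edgeR adjusted p = 2.0e-04), where 2 of 6 tested genes were lower, 0 higher, and 39.7% of all genes were called (20.7% higher and 19.0% lower).

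The step from CK to AS in roots depended on the scaling. With TMM, which assumes that most genes do not change, Gh_A03G0182 differed by -0.72 ± 0.298 (edgeR adjusted p = 0.0833) and Gh_D03G1402 by -0.35 ± 0.246 (edgeR adjusted p = 0.287), and 0 of 6 tested genes were called (1 at an unadjusted p under 0.05), where 38.0% of all 39584 genes were called (21.0% higher and 17.0% lower). DESeq2 called neither gene. With library totals as the only scaling the differences were -1.20 (edgeR adjusted p = 0.00545) and -0.83 (edgeR adjusted p = 0.0120), and with limma on log2(FPKM + 1) they were -1.25 (adjusted p = 0.00334) and -0.86 (adjusted p = 0.00877). Library totals moved the median of all genes to -0.48 in AS and -0.59 in SAS roots, from -0.01 and -0.06 with TMM, and 24.7% of the called genes were then higher in AS roots, against 55.2% with TMM. In SAS roots this share was 28.8% against 50.2%.

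The balance within the root-high couple had a like mean in CK and SAS roots. The log2 ratio of Gh_A03G0182 over Gh_D03G1402 was 0.22 ± 0.019 in CK roots and 0.21 ± 0.224 in SAS roots, which overlapped (exact permutation p = 1). It was -0.18 ± 0.162 in AS roots, below CK without overlap (exact permutation p = 0.1, the smallest possible).

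The leaf-high genes were at low levels in roots. Of the 4 tested there, 3 were called higher in SAS than in CK, where 28.6% of all genes were higher and 28.3% lower. These 3 calls were near the threshold and were lost with library totals, as given below. Gh_A07G2172 had an FPKM of 2.0, 15.7 and 11.5 in the CK root libraries, of 8.80, 8.69 and 10.4 under AS and of 17.0, 22.8 and 17.6 under SAS. Its first CK library was far below the other 2, and the SAS libraries lay above all CK libraries. Gh_D07G1759 had 1.09, 8.70 and 7.87 in CK and 10.4, 14.2 and 11.3 in SAS roots. Gh_D11G1671 had 0.442, 4.54 and 3.20 in CK and 5.61, 7.54 and 6.05 in SAS roots.

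Of the 6 genes tested in roots, 3 were higher and 2 lower in SAS than in CK, where 57.0% of all genes were called (28.6% higher and 28.3% lower). The higher ones were Gh_A07G2172 (log2 1.48 ± 0.551, edgeR adjusted p = 0.0422), Gh_D07G1759 (1.52 ± 0.594, edgeR adjusted p = 0.0499) and Gh_D11G1671 (1.73 ± 0.618, edgeR adjusted p = 0.0353). Gh_A11G1509 had 1.16 ± 0.784 (edgeR adjusted p = 0.227). With library totals none of the 3 was called, at adjusted p of 0.126, 0.136 and 0.0909, without the filter Gh_A07G2172 and Gh_D07G1759 were not called (0.0505 and 0.0592), nor were they by limma at a pseudocount of 0.1 (0.0591 and 0.0661), and limma at 1 did not call Gh_D07G1759 (0.0535). Leaving out CK root 3, SAS root 2 or SAS root 3 ended the call of each (adjusted p 0.0577 to 0.116). Without SAS root 1, Gh_A07G2172 and Gh_D07G1759 were not called (0.0585 and 0.0657). Without the first CK root library the 3 differences were 0.99, 1.03 and 1.23, at adjusted p of 0.00485, 0.0194 and 0.0102.

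Gh_A11G1510 and Gh_D11G1672 did not pass the FPKM filter in roots. Gh_A11G1510 had a mean FPKM of 0.625 in CK and 0.751 in SAS roots. Gh_D11G1672 had 0 counts in SAS libraries 1 and 2 and AS library 3. A count of 0 there allows up to 3 counts, or 0.0632, 0.0610 and 0.0579 CPM in these libraries, limits that cover counting error only.

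To set root against leaf levels, CPM of the scaling over all 18 libraries was used. Summed over the 6 leaf-high genes it was 2.07, 19.8 and 15.9 in CK root libraries, or 0.0237%, 0.228% and 0.182% of the CK leaf mean of 8704. It was 0.170%, 0.230% and 0.221% under AS and 0.358%, 0.494% and 0.412% under SAS. The leaf marker list stood at 0.744%, 0.686% and 0.719% of its CK leaf mean of 9943, on the same scale, in the CK root libraries, at 1.64%, 1.30% and 0.819% under AS and at 1.53%, 1.88% and 1.76% under SAS. So both the leaf-high genes and the leaf markers were higher in every SAS root library than in every CK root library, and the first CK root library was low for the leaf-high genes but not for the leaf marker list. Of the 119 leaf markers, 14 were at 0 counts in SAS roots and 21 in CK roots. The list of plastid-encoded transcripts summed to 4.51 ± 0.756 CPM in CK, 10.6 ± 2.96 in AS and 48.3 ± 24.9 in SAS roots (SD, n = 3), and all 4 tested copies of the large subunit were higher in SAS than in CK roots. How well these libraries of poly(A) RNA measure plastid transcripts was not tested. The root marker list summed to 1083 to 1676 CPM in CK and 598 to 1473 in SAS roots. The part of these lists in the values of the leaf-high genes in roots was not tested.

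**Figure D4:**
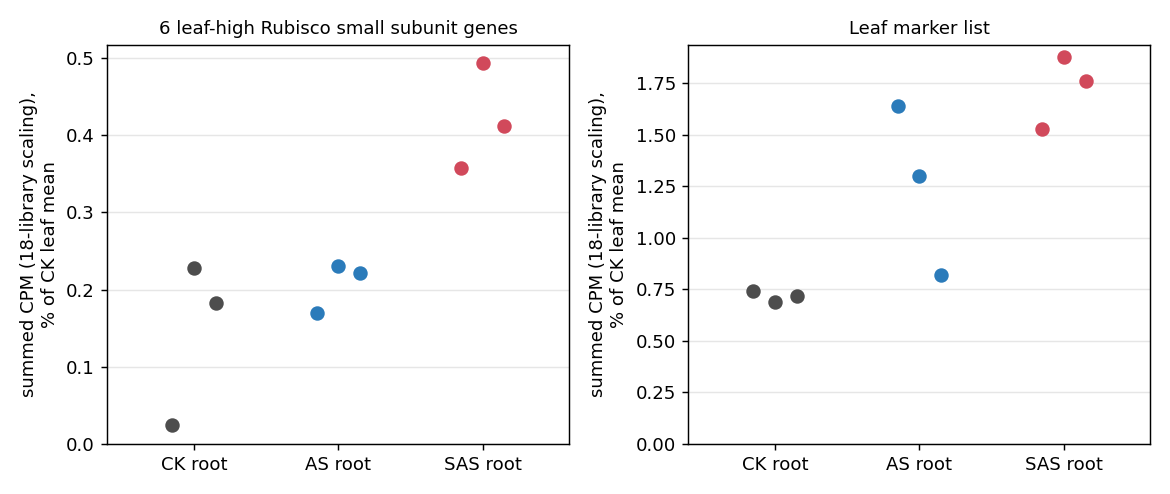
Summed CPM, on the TMM scaling over all 18 libraries, of the 6 leaf-high Rubisco small subunit genes (left) and of the leaf marker list (right) in each root library, as a percentage of the mean in CK leaves, both axes from 0. SAS root libraries lie at 0.358% to 0.494% on the left and 1.53% to 1.88% on the right, above all CK root libraries in both, and the first CK root library lies at 0.0237% on the left.

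The pathway lists moved in both directions in SAS roots. They had 41.8% to 66.7% of their genes called, around the 57.0% of all genes (28.6% higher and 28.3% lower). The Rubisco assembly list had 16 of 40 tested genes higher and 7 lower, the Calvin-Benson cycle 9 higher and 14 lower of 55, photorespiration 4 higher and 8 lower of 18, chloroplast import 10 higher and 5 lower of 33 and light regulators 1 higher and 9 lower of 16. All 3 tested phytochrome interacting factor genes were lower.

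The SAS response differed between root and leaf for 7 of the 8 genes in the interaction test over all libraries, 5 with a higher and 2 with a lower log2 change in roots than in leaves, where 40.9% of all genes were called (20.9% higher and 20% lower). Gh_A03G0182 (-2.70 ± 0.427, edgeR adjusted p = 1.6e-04) and Gh_D03G1402 (-2.61 ± 0.354, edgeR adjusted p = 4.3e-05) were the lower ones. Among the higher ones the difference ran from 2.43 ± 0.812 for Gh_A11G1509 (edgeR adjusted p = 0.0259) to 3.45 ± 0.712 for Gh_D11G1671 (edgeR adjusted p = 0.00132). Gh_D11G1672 had 1.66 ± 1.19 (edgeR adjusted p = 0.286). Limma on log2(FPKM + 1) called it, at 1.85 (adjusted p = 1.7e-04), and limma on log2(FPKM + 0.1) did not (adjusted p = 0.305). Gh_A11G1510, among the higher ones, passed the filter of this fit through leaves and was not tested in the root fit. Its counts were 2, 33 and 26 in CK roots and 13, 37 and 26 in SAS roots, and these groups overlapped. Its call thus reflects its fall in leaves set against low root counts. The call of Gh_A11G1509 was lost with library totals (adjusted p = 0.0781) and without SAS leaf 1 (0.0611) or SAS leaf 2 (0.0564). For the AS response 0 of 8 genes were called and 0 had an unadjusted p under 0.05, where 27.0% of all genes were called (14.5% higher and 12.5% lower). DESeq2 called none of the 8. Gh_A03G0182 was called lower with library totals (adjusted p = 0.0361), and limma on log2(FPKM + 1) called Gh_A03G0182 and Gh_D03G1402 lower, at adjusted p of 0.0175 and 0.0485. Library totals moved the median of all genes to -0.68 in the AS and -0.75 in the SAS response, and the share of called genes that were higher from 53.6% to 15.2% and from 51.1% to 21.3%.

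Profiles over the 18 libraries were compared by the root mean square difference of centred log2(CPM + 1) values, over the 48954 genes tested. The 3 genes nearest to Gh_A07G2172 were of the same family, Gh_D07G1759 at 0.207, Gh_D11G1671 at 0.238 and Gh_A11G1509 at 0.466. Next came Gh_A06G1466, a Rubisco activase, at 0.510 and Gh_D13G2270, an alanine:glyoxylate aminotransferase of photorespiration, at 0.524. For Gh_D07G1759 the nearest were Gh_D11G1671 at 0.156, Gh_A07G2172 at 0.207, Gh_A11G1509 at 0.413, Gh_D13G2270 at 0.446 and the activase Gh_D06G1799 at 0.476. Reads shared between copies can make their profiles alike, and the distances are descriptions with no test.

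For the root-high couple the same search was added after their values were seen. Nearest to Gh_A03G0182 were a gene described as a copper transport protein, Gh_D12G0431, at 0.352 and a protein kinase gene, Gh_A06G0724, at 0.388. Nearest to Gh_D03G1402 were a bZIP factor gene, Gh_A09G0903, at 0.267 and a glycosyl hydrolase of family 17, Gh_D05G0263, at 0.270. Neither gene of the couple was among the 5 nearest of the other.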

How the data were processed

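Counts per gene, whole numbers that the authors did not normalize, and FPKM, which the authors scaled by gene length and library total, were read from the deposited table per the file headers. The submitters' processing notes name HISAT and StringTie; their versions, the genome build and the counting rule are not given in the sources used here. All 18 libraries were grouped by their labels. A value with 0 counts is listed at an FPKM of 0.0001.

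Genes reaching an FPKM of 1 in 3 or more fitted libraries were tested with edgeR 4.0.16 (quasi-likelihood, TMM) in R 4.3.3: 44761 genes over 9 leaf libraries, 39584 over 9 root libraries and 48954 over all 18, at biological coefficients of variation of 0.197, 0.290 and 0.280. Benjamini-Hochberg adjustment of p-values ran over all genes tested, with a threshold of 0.05. SE is the log2 change divided by the square root of F. CPM is the count over library total times TMM factor, per 1000000, with TMM over 1 tissue for values within it and over all 18 libraries where root and leaf levels are compared. FPKM was used between genes. The edgeR fit was tested on simulated data for SAS against CK in leaves: of 200 changed genes among 44761, it recovered 93.9% at a log2 change of 2 and 76.2% at 1. The share of changed genes in the simulation was far below the 53.2% called in the data. These rates therefore need not hold for the data. DESeq2 1.42.0, limma 3.58.1 on log2(FPKM + 1) or log2(FPKM + 0.1), library totals alone, no filter, the replicate number as a block and leaving out each library were alternatives.

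The members and lists were chosen with earlier results of these data known. All members are named; of each list, at most 2 genes of largest log2 change in SAS against CK leaves among those called with groups that did not overlap, and at most 2 of the opposite direction; and the 5 genes of nearest profile for the 2 members of highest mean CPM. Wrongly matched descriptions were taken out of the lists after the table was seen and before tests. Marker descriptions of phosphate and nitrate transporters can match genes of any tissue.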

Additional observations from a re-analysis of the deposited data

Results flagged for a closer look

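The log2 change of SAS against CK differed between root and leaf for 7 of the 8 genes, by the interaction term of edgeR over all 18 libraries. The difference, root minus leaf, was -2.70 for Gh_A03G0182 and -2.61 for Gh_D03G1402, which fell in roots and were not called in leaves. It was 3.12 for Gh_A07G2172, 3.35 for Gh_D07G1759 and 3.45 for Gh_D11G1671, which fell in leaves and were called higher in roots. It was 2.43 for Gh_A11G1509 and 2.64 for Gh_A11G1510, which fell in leaves. In roots Gh_A11G1509 was not called and Gh_A11G1510 was below the FPKM filter. The interaction call of Gh_A11G1510 thus reflects its fall in leaves set against low root counts. The interaction call of Gh_A11G1509 was lost with library totals (edgeR adjusted p = 0.0781) and without SAS leaf 1 (0.0611) or SAS leaf 2 (0.0564). In CK root library 1 the leaf-high genes were low. The calls of Gh_A07G2172, Gh_D07G1759 and Gh_D11G1671 in roots held without that library, and all 3 were lost with library totals (adjusted p from edgeR 0.126, 0.136 and 0.0909) and without CK root 3, SAS root 2 or SAS root 3 (0.0577 to 0.116).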

How the results depend on the processing

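Of 888 values of single genes under the alternatives, 816 kept direction and side of the threshold, 27 lost a call, 11 gained one and 34 changed sign. The genes whose sign changed were not called in the main edgeR fit of the comparison concerned. Gh_D03G1402 in the AS response changed sign and was also called, by limma on log2(FPKM + 1) (-0.68, adjusted p = 0.0485). The replicate numbers gave no clear sign of pairing the libraries. Correlations of same-numbered deviations ran from -0.167 to 0.166 in leaves and from -0.183 to 0.101 in roots. Over all 18 libraries they ran from -0.174 to 0.212. Differently numbered leaf libraries reached -0.266 and 0.287, so with 3 libraries in a group this check cannot exclude pairing. With the replicate block 22306 genes were called in SAS against CK leaves (23804 without) and 7141 in AS against CK leaves (9268 without), and no call of a member changed.

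Counts of called genes moved over 1.5 times in AS against CK leaves when 1 library was left out (4520 to 8868, from 9268; without CK leaf 1, 2 or 3 or AS leaf 1 or 3), and in the AS response from 13230 to 19946 with library totals and to 21044 and 20537 with limma at pseudocounts 1 and 0.1. The log2 change of the summed members in AS against CK roots went from -0.48 to -0.98 with FPKM and -0.96 with library totals. In SAS against CK roots it went from -2.08 to -2.68, -2.61 and, without the highest member, -2.40. Between CK roots and CK leaves it went from -4.79 to -5.02 with library totals and -3.95 without the highest member. The cause was not tested.

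Sign changes in AS against CK leaves were those of Gh_A07G2172 with library totals (0.009) and limma (0.016 at both pseudocounts), and on leaving out libraries of Gh_A07G2172 (-0.144 to 0.066) and Gh_A03G0182 (-0.435 to 0.065). On leaving out libraries, Gh_A03G0182 ran from -0.24 to 0.10 and Gh_D03G1402 from -0.376 to 0.047 in SAS against CK leaves, and from -0.11 to 0.40 and -0.054 to 0.394 in SAS against AS leaves. In AS against CK roots, Gh_A07G2172 was at -0.064 with library totals (-0.12 to 0.89 on leaving out libraries), and Gh_A11G1509 at 0.21 with the replicate block and 0.28 with limma at pseudocount 0.1 (-0.66 to 0.47).

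In the AS response, library totals gave -0.074 for Gh_A07G2172, -0.45 for Gh_A11G1509, -0.41 for Gh_A11G1510, -0.56 for Gh_D03G1402 and -0.17 for Gh_D11G1672. Limma gave -0.028 for Gh_A11G1509 at pseudocount 1, -0.68 and -0.61 for Gh_D03G1402 at 1 and 0.1, and -0.035 for Gh_D11G1672 at 0.1. Leaving out libraries gave -0.42 to 0.74 for Gh_A11G1509, -0.33 to 0.71 for Gh_A11G1510, -0.035 to 0.295 for Gh_D03G1402 and -0.16 to 1.01 for Gh_D11G1672. In the SAS response Gh_D11G1672 ran from -4.31 to 2.25, the first without SAS root 3, which left it at 0 counts in SAS roots. The 6 leaf-high genes together had 105 counts in CK root 1 and 661 to 1620 in the other root libraries.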
